A study of Mus musculus with 18 samples.

Results

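Mouse medulloblastomas labelled as the NG subtype were compared between 2 genotypes on 8 of the 18 arrays in the series. The NG-Smo group held 4 tumours labelled Smo;Atoh1-CreER, and the NG-Ptch group held 4 tumours labelled Ptch. All 19938 genes measured by a probe set with 1 gene symbol were compared, and where a gene had several probe sets the one brightest on average in the 18 arrays was kept. The other arrays came from 4 GFD-Smo tumours labelled GFAP-cre, 2 GFD-Ptch tumours and 4 GFI-Ptch tumours, and they shared in the estimate of the spread. Among these, GFI-Ptch replicate 4 is labelled with an NSG female host. All 18 were medulloblastomas hybridised as total RNA to Affymetrix mouse Gene ST 1.0 arrays. The labels do not spell out NG, GFD and GFI, and they give no age, strain, tamoxifen schedule or exact allele. A Cre driver is named for NG-Smo and not for NG-Ptch, so driver and genotype cannot be told apart. Nothing says that the tumours came from separate animals, so the p-values measure the spread between these samples.

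Medulloblastoma is a tumour of the cerebellum, and one of its forms arises from granule neuron progenitors with an active Hedgehog pathway. Patched 1 (Ptch1) is the Hedgehog receptor and holds Smoothened (Smo) off, and Smo signals through release of the Gli transcription factors from the inhibitor Sufu. Loss of Ptch1 and an activating change in Smo therefore enter the same pathway at neighbouring steps. Atoh1-CreER drives inducible Cre recombinase in cells that express Atoh1, which marks granule neuron progenitors, whereas GFAP-cre acts in a wider set of neural progenitors and astrocytes.

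Values are log2 expression levels, and a change is the NG-Smo mean minus the NG-Ptch mean. Each SE of a change or difference comes from limma, with the spread estimated from the arrays of all groups together. It therefore does not measure the spread of the NG arrays alone, and the n beside it only counts the arrays in each NG group. Each SD, in contrast, is the spread of the arrays in the named group. Array medians lay between 7.74 and 7.85 in both NG groups. Correlations over all genes were 0.981 to 0.989 within NG-Smo and 0.993 to 0.996 within NG-Ptch, and NG-Smo arrays correlated with NG-Ptch arrays at 0.983 to 0.991. NG-Smo replicate 4 stood apart from the other 7 NG arrays on the second principal component, at -27.8 against -9.4 to 13.1. The sexes were unbalanced. The Y-linked gene Eif2s3y was at 10.13 and 10.27 in NG-Smo replicates 1 and 3, at 5.01 and 5.02 in NG-Smo replicates 2 and 4, and between 4.97 and 5.05 in the NG-Ptch arrays. Gender labels went against the Y-linked genes on 3 arrays outside the NG groups, GFD-Smo replicates 2 and 3 and GFI-Ptch replicate 4. The last of these is labelled with an NSG female host.

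Of the 19938 genes, 208 (1.04%) passed an adjusted p of 0.05 in limma with Benjamini-Hochberg adjustment, and these are the genes called here. Higher levels in NG-Smo were called for 121 genes (0.607%) and lower levels for 87 (0.436%). Of the called genes, 34 (0.171% of all) differed by 1 or more on the log2 scale, 22 higher (0.110%) and 12 lower (0.0602%). Both groups of arrays were fully separated for 199 of the 208 called genes, against 1127 (5.65%) of all genes. The calls were made on the difference between these same arrays, so the separation is no separate support for them. The median change over all genes was 0.01. The number of calls moved with the arrays included. It was 42 with the 8 NG arrays alone and 76 without the 2 NG-Smo arrays that had Y-linked transcripts. It was 384 without NG-Smo replicate 4 and also 384 without GFI-Ptch replicate 4. Without NG-Ptch replicate 2, 4 or 5 it was 75, 86 or 84, and without NG-Smo replicate 2 or 3 it was 127 or 95. Leaving out GFD-Smo replicate 1, 2, 3 or 4 gave 119, 122, 116 or 126 calls.

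Among the Hedgehog components, Sufu fell in NG-Smo tumours, and Ptch1 did not pass the test. Ptch1 was at 12.25, 12.40, 12.75 and 12.70 in NG-Smo, against 11.21, 11.49, 12.14 and 11.39 in NG-Ptch. Every NG-Smo array was above every NG-Ptch array, and the change was 0.97 ± 0.225 (SE, n = 4 each; limma adjusted p = 0.0544). Which part of Ptch1 the probe set reads relative to a targeted part is not given in the sources used here, so this level checks no label. Smo itself was at 11.35, 11.49, 11.80 and 11.69 in NG-Smo and at 11.37, 11.13, 11.76 and 11.42 in NG-Ptch, and the groups overlapped (change 0.16, limma adjusted p = 0.793).

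Sufu, which holds the Gli factors inactive, was at 10.90, 10.78, 11.05 and 11.24 in NG-Smo, against 11.66, 11.68, 11.63 and 11.35 in NG-Ptch. The 4 NG-Smo arrays were the 4 lowest, and Sufu fell by 0.59 ± 0.119 on the log2 scale (SE, n = 4 each; limma adjusted p = 0.0307). It was not called with the 8 NG arrays alone (adjusted p = 0.103), nor without NG-Ptch replicate 1, 2 or 4 or NG-Smo replicate 1, 2 or 3, with an adjusted p of up to 0.101. Gli1, a transcription factor that is also a target of the pathway, averaged 10.06 ± 0.23 in NG-Smo and 10.44 ± 0.06 in NG-Ptch (SD, n = 4 each), with no overlap of arrays and an adjusted p of 0.301 in limma. Gli2 and Hhip, an inhibitor that binds the ligand, had changes of -0.31 and -0.40, and neither passed (adjusted p = 0.440 and 0.732 in limma). Boc, a coreceptor picked after its values were seen, had a change of -0.38 (adjusted p = 0.168 in limma).

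Across the 19 measured members of the Hedgehog list, Sufu was the 1 called gene, and 0.436% of all genes were called lower. Changes ran from -0.59 to 0.97 with a median of -0.09, and 15 members lay below 0, against 47.1% of all genes. Without GFI-Ptch replicate 4, Ptch1 was called higher and Sufu, Gli1 and Boc lower. With the 8 NG arrays alone, and without the 2 NG-Smo arrays that had Y-linked transcripts, no member was called. Of 9 genes known to be induced by Hedgehog signalling in growth, none was called. Mycn, a driver of progenitor proliferation, had a change of -0.41 (adjusted p = 0.155) and the cell cycle gene Ccnd1 one of 0.28 (adjusted p = 0.333). The Wnt antagonist Sfrp1 averaged 11.89 ± 0.35 in NG-Smo and 12.64 ± 0.17 in NG-Ptch (SD, n = 4 each), with separate arrays and an adjusted p of 0.0615 in limma. Igf2, a growth factor, was at 12.41 in NG-Smo replicate 2, while NG-Smo replicates 1, 3 and 4 ran from 9.38 to 9.65, against 9.39 to 9.71 in NG-Ptch.

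**Figure D1:**
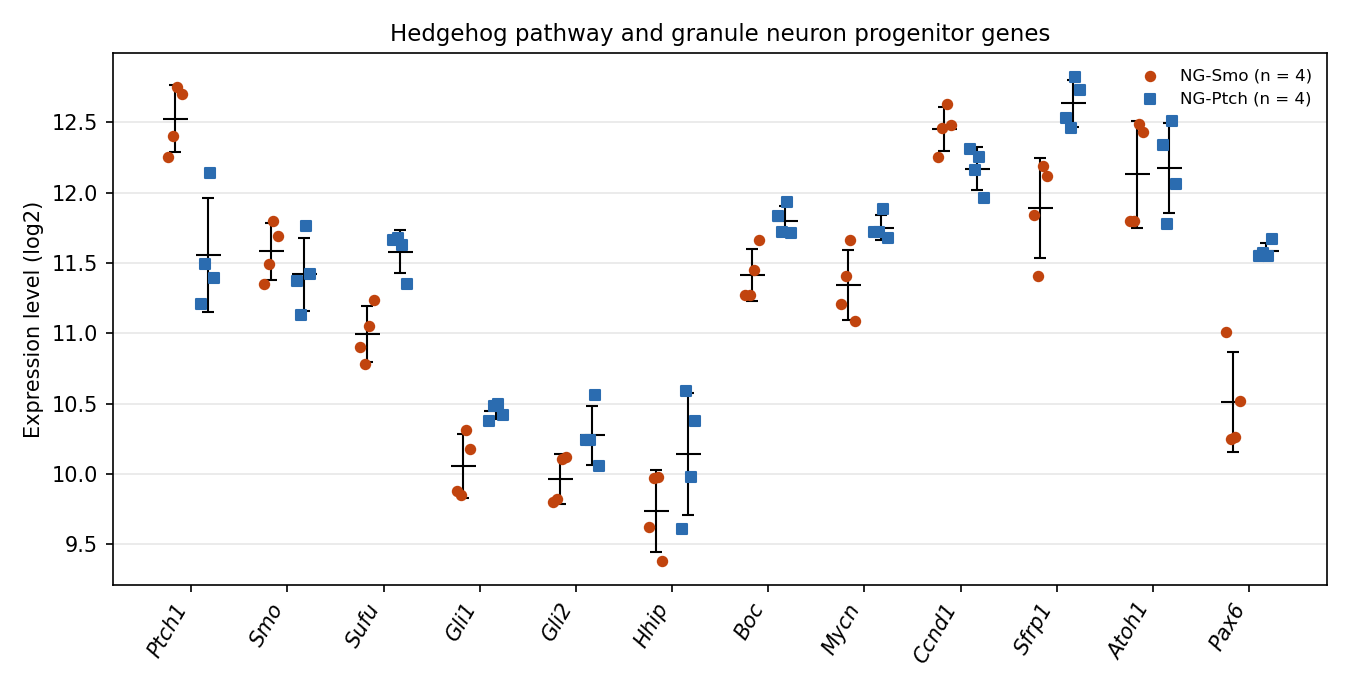
Expression level (log2) of Hedgehog pathway and granule neuron progenitor genes in each NG-Smo array (circles, left of each pair) and NG-Ptch array (squares, right), with the mean and SD of 4 arrays. Ptch1 lies higher in all NG-Smo arrays, Sufu and Pax6 lie lower, and Smo and Atoh1 overlap.

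None of the 18 measured granule neuron progenitor genes was called. Changes ran from -1.08 to 0.22 with a median of -0.25, and 16 members lay below 0, against 47.1% of all genes. Averaged over the list, the NG-Smo arrays were at 11.26, 11.14, 11.31 and 11.40, against 11.54, 11.57, 11.54 and 11.52 in NG-Ptch, and the groups were separate. Atoh1, the factor that defines these progenitors, averaged 12.13 ± 0.38 in NG-Smo and 12.17 ± 0.32 in NG-Ptch (SD, n = 4 each). That is far above the lower quartile of every NG array, 6.21 to 6.34. Pax6, a transcription factor of the granule lineage, was at 11.01, 10.25, 10.26 and 10.52 in NG-Smo, against 11.55, 11.57, 11.55 and 11.67 in NG-Ptch. Its arrays were separate, and the change of -1.08 had an adjusted p of 0.0915 in limma. Pax6 was called lower with the 8 NG arrays alone (adjusted p = 0.0488). The homeobox gene Tlx3 had a change of -0.61 (adjusted p = 0.0865), and the chemokine receptor Cxcr4, picked after its values were seen, one of -0.59 (adjusted p = 0.131).

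Neuronal differentiation and cell cycle lists had no called member. In the 20 genes of differentiated granule neurons the median change was -0.16. The neurofilament gene Nefl was at 9.61 in NG-Smo replicate 1, while NG-Smo replicates 2, 3 and 4 ran from 6.90 to 7.70, against 8.32 to 9.02 in NG-Ptch, so the groups overlapped (adjusted p = 0.568 in limma). Calb2, encoding the calcium-binding protein calretinin, had a change of -0.77 (adjusted p = 0.613), and the neuronal splicing factor Rbfox3, picked after its values were seen, one of -0.49 (adjusted p = 0.127). The 18 S phase genes had a median change of 0.02 and the 17 mitosis genes one of 0.03. The most changed members in these were Tyms (0.34, thymidylate synthesis), Ccne1 (0.31, cyclin E1), Cdk1 (0.20, the mitotic kinase) and Kif11 (-0.17, a spindle motor), none of them called.

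In neural stem cell genes, 1 of 14 was called lower, against 0.436% of all genes. Sox9, a factor of stem cells and glia, was at 9.85, 10.16, 10.49 and 10.14 in NG-Smo, against 10.86, 10.78, 11.02 and 10.57 in NG-Ptch. Its arrays were separate and it fell by 0.65 ± 0.147 (SE, n = 4 each; limma adjusted p = 0.0495), a call kept in 2 of 18 fits that each left out 1 array. Sox2, another stem cell factor, had a change of -0.09 (adjusted p = 0.995). Among the 13 astrocyte genes none was called. The intermediate filament gene Gfap averaged 9.78 ± 0.13 in NG-Smo and 10.48 ± 0.07 in NG-Ptch (SD, n = 4 each), with separate arrays and an adjusted p of 0.296 in limma. With the 8 NG arrays alone Gfap was called lower (adjusted p = 0.0146).

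Oligodendrocyte genes showed the highest median of all 41 lists, 0.48, with 10 of 10 members above 0 and none called. Their mean level ran from 7.90 to 9.31 in NG-Smo and from 7.61 to 8.28 in NG-Ptch, so the groups overlapped. The myelin junction gene Cldn11 was at 8.72, 10.40, 9.64 and 10.67 in NG-Smo, against 9.52, 8.64, 9.09 and 8.49 in NG-Ptch (adjusted p = 0.358 in limma). Without NG-Smo replicate 4 the median of the list was 0.13. Ugt8a, an enzyme of myelin lipid synthesis, had a change of 0.73 (adjusted p = 0.311). The 10 genes of oligodendrocyte progenitors had a median of 0.07, with Olig2 at -0.23, Pdgfra at -0.51 and Lhfpl3 at 0.25.

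The largest called increases were in genes with diverse roles. The sialic acid lyase Npl was at 10.95, 11.19, 10.91 and 10.05 in NG-Smo, against 9.09, 9.0, 8.74 and 8.47 in NG-Ptch. Every NG-Smo array was higher, by 1.95 ± 0.304 (SE, n = 4 each; limma adjusted p = 0.00595), or 3.86-fold. The endosomal protease gene Ctse was at 8.17, 8.42, 8.65 and 7.77 in NG-Smo, against 6.73, 6.52, 6.66 and 6.70 in NG-Ptch. Its levels in NG-Ptch were close to the lower quartile of the arrays, and it rose by 1.60 ± 0.145 (SE, n = 4 each; adjusted p = 6.73e-05 in limma). Dmrtb1, of the DMRT family of transcription factors, was at 8.35, 9.17, 9.25 and 8.57 in NG-Smo, against 7.39, 7.26, 7.48 and 7.33 in NG-Ptch, a rise of 1.47 ± 0.150 (SE; adjusted p = 2.37e-04 in limma).

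The neuronal calcium sensor Hpca was at 12.35, 12.35, 12.37 and 11.99 in NG-Smo, against 10.88, 10.92, 11.20 and 11.24 in NG-Ptch. It rose by 1.21 ± 0.165 (SE, n = 4 each; limma adjusted p = 0.00234). The adenylate kinase Ak1 rose by 1.41 and the sterol carrier Scp2 by 1.10. The secreted Wnt inhibitor Wif1 rose by 1.40. It was the 1 called gene among 20 of the Wnt pathway, whose median change was -0.01, and 0.607% of all genes were called higher. The apoptosis inhibitor Bcl2l2 rose by 1.11, the placental growth factor gene Pgf by 1.24, the chitinase-like Chil1 by 1.17, the cytokine Il1a by 1.20 and Cmtm7 by 1.24. Pttg1, which encodes the anaphase inhibitor securin, lay outside the 15 and was picked after its values were seen. It averaged 9.91 ± 0.37 in NG-Smo and 8.87 ± 0.15 in NG-Ptch (SD, n = 4 each; limma adjusted p = 0.00301).

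Clustered protocadherins and laminins each held several called genes, and both families were chosen after these values were seen. Protocadherins of the beta cluster are neuronal adhesion proteins encoded by similar neighbouring genes on chromosome 18, so signal may be shared between members. Pcdhb6 was at 10.76, 10.15, 10.06 and 9.42 in NG-Smo, against 8.47, 8.23, 8.43 and 8.38 in NG-Ptch, a rise of 1.72 ± 0.263 (SE, n = 4 each; limma adjusted p = 0.00511). Pcdhb3 rose by 1.29 and Pcdhb7 by 1.02, and the 22 measured members had a median change of 0.24, with 17 above 0 and these 3 called higher, against 0.607% of all genes. Of 10 laminin chains, which build basement membranes, 3 were called higher, against the same 0.607% of all genes. Lama5 was at 10.52, 10.10, 11.12 and 10.13 in NG-Smo, against 8.67, 8.87, 9.23 and 9.25 in NG-Ptch, and its rise of 1.47 had an adjusted p of 0.0495 in limma, a call kept in 3 of 18 fits that left out 1 array. Lama2 and Lama3 rose by 0.80 and 0.30.

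Among the 9 largest called decreases, the protamine gene Prm1, a packaging protein of sperm DNA, had the largest. It was at 7.48, 7.48, 7.10 and 7.60 in NG-Smo, against 11.20, 11.27, 8.80 and 11.37 in NG-Ptch. All NG-Smo arrays were lower, and it fell by 3.24 ± 0.410 on the log2 scale (SE, n = 4 each; limma adjusted p = 0.00164). Its mean was 11.68 in GFD-Smo, 11.14 in GFD-Ptch and 11.17 in GFI-Ptch, so NG-Smo held the lowest level of the 5 groups. The interferon-inducible Ifi203 was at 8.19, 7.85, 8.02 and 7.45 in NG-Smo, against 10.60, 10.75, 9.63 and 10.79 in NG-Ptch, and it fell by 2.56 ± 0.283 (SE; adjusted p = 5.72e-04 in limma). Rgs13, a regulator of G protein signalling, was at 7.88, 6.21, 7.43 and 7.58 in NG-Smo, against 10.31, 10.83, 9.56 and 10.38 in NG-Ptch. Its arrays were far apart, and its fall of 2.99 had an adjusted p of 0.0378 in limma, kept in 5 of 18 fits that left out 1 array.

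The remaining decreases included receptors and transcription factors. Ret, the receptor for GDNF family ligands, was at 7.61, 7.72, 8.02 and 7.82 in NG-Smo, against 9.13, 9.38, 9.26 and 9.86 in NG-Ptch, and fell by 1.61 ± 0.308 (SE, n = 4 each; limma adjusted p = 0.0223). Adcyap1r1, the receptor for the peptide PACAP, was at 9.43, 9.19, 10.14 and 9.87 in NG-Smo, against 10.65, 10.73, 11.13 and 10.94 in NG-Ptch. It fell by 1.21 ± 0.162 (SE; adjusted p = 0.00214 in limma). The forkhead factor Foxd1 fell by 1.89, the AMPA receptor auxiliary subunit Cacng3 by 1.25, the meiotic helicase Hfm1 by 1.11 and the transcriptional corepressor Runx1t1 by 1.11.

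**Figure D2:**
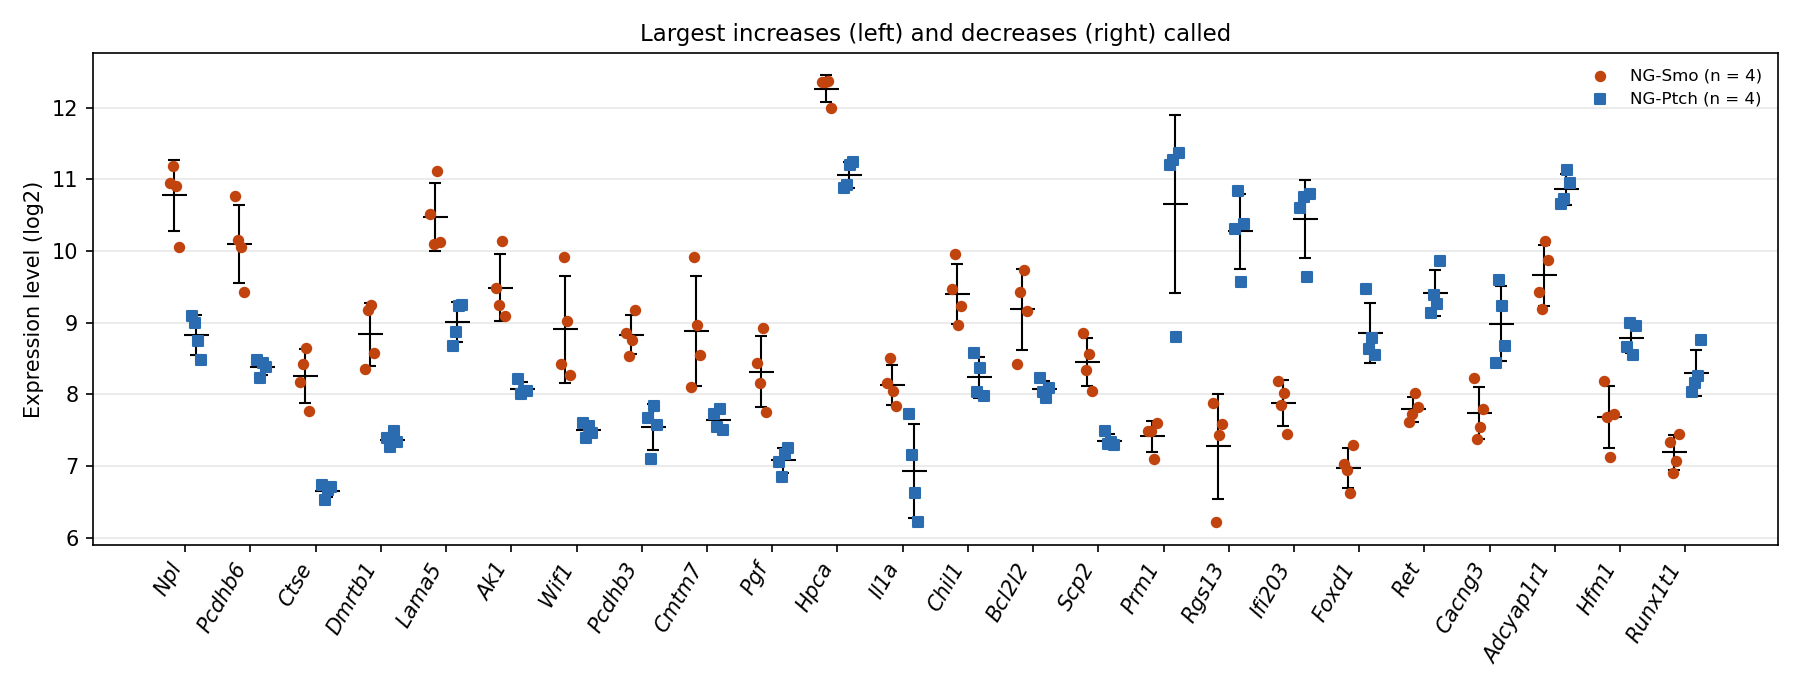
Expression level (log2) of the 15 largest called increases and 9 largest called decreases in each NG-Smo array (circles, left of each pair) and NG-Ptch array (squares, right), with the mean and SD of 4 arrays. The groups are separate for each gene, and Prm1 in NG-Ptch has 1 array at 8.80 and the other 3 above 11.

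Of 19 measured microglia and macrophage genes, 3 were called higher, against 0.607% of all genes. All 19 changes were above 0, against 52.9% of all genes, with a median of 0.37 and a range from 0.03 to 0.91. Averaged over the list, the NG-Smo arrays were at 9.58, 9.52, 9.46 and 9.36, against 9.31, 9.11, 8.95 and 8.91 in NG-Ptch, and the groups were separate. In bulk tumour RNA, more cells of a type and more RNA per cell cannot be told apart. The fractalkine receptor gene Cx3cr1, a microglial marker, was at 9.59, 9.64, 10.25 and 10.16 in NG-Smo, against 9.38, 9.0, 8.80 and 8.80 in NG-Ptch. It rose by 0.91 ± 0.182 (SE, n = 4 each; limma adjusted p = 0.0278). Ptprc, which encodes the leukocyte antigen CD45, was at 8.81, 8.55, 8.36 and 8.60 in NG-Smo, against 8.30, 8.08, 7.81 and 7.87 in NG-Ptch, and rose by 0.56 (adjusted p = 0.0357 in limma). Aif1, which encodes IBA1, was at 7.48, 7.83, 7.55 and 7.35 in NG-Smo, against 7.20, 7.14, 6.94 and 7.0 in NG-Ptch, and rose by 0.48 (adjusted p = 0.0200 in limma). Other defining markers were present in both groups and not called, among them Csf1r (0.67, adjusted p = 0.191), P2ry12 (0.58, adjusted p = 0.146) and Tmem119 (0.16, adjusted p = 0.491).

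The calls in the microglia list depended on the arrays included. None of the 3 was called with the 8 NG arrays alone or without the 2 NG-Smo arrays that had Y-linked transcripts. The fit to the 8 NG arrays has the same group means, so its changes and their median of 0.37 could not differ. Without the 2 NG-Smo arrays, 19 of 19 changes were above 0, with a median of 0.35. The call was lost for Cx3cr1 without NG-Ptch replicate 2, 4 or 5 or NG-Smo replicate 3, for Aif1 without NG-Ptch replicate 4 or 5 or NG-Smo replicate 3, and for Ptprc without any of 7 arrays.

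**Figure D3:**
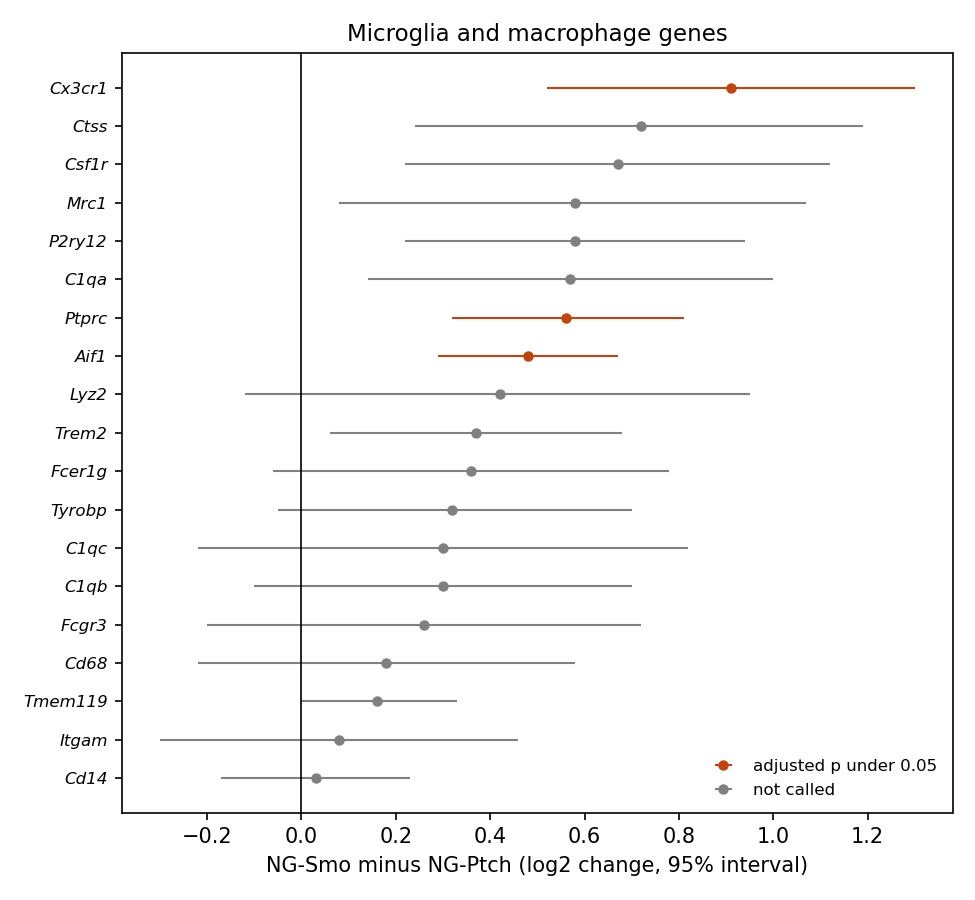
Log2 change of NG-Smo minus NG-Ptch for the 19 measured microglia and macrophage genes, with the 95% interval from limma. All points lie above 0, from 0.03 for Cd14 to 0.91 for Cx3cr1, and the 3 called genes are drawn in colour.

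Further genes of myeloid cells were among the 121 called increases, and they were picked from these after their values were seen. Syk, a kinase of immune receptors, was at 7.78, 7.86, 7.73 and 7.63 in NG-Smo, against 7.36, 7.30, 7.25 and 7.22 in NG-Ptch, and rose by 0.47 ± 0.057 (SE, n = 4 each; limma adjusted p = 0.00111). Nckap1l, a regulator of actin in blood cells, averaged 9.83 ± 0.13 in NG-Smo and 9.0 ± 0.22 in NG-Ptch (SD, n = 4 each). The mean of the interleukin 10 receptor gene Il10ra was 7.64 ± 0.14 in NG-Smo and 7.06 ± 0.08 in NG-Ptch (SD, n = 4 each). For the oxidase subunit gene Cybb it was 10.42 ± 0.12 in NG-Smo and 9.64 ± 0.27 in NG-Ptch (SD, n = 4 each). Rises were also called for Btk (0.26) and Lcp2 (0.76), of immune receptor signalling, for the Fc receptor Fcgr1 (0.62) and the costimulator Cd86 (0.56), and for Pld4 (0.87), Gpr65 (0.80), Tbxas1 (0.82) and Tfec (1.01). Of 10 Toll-like receptors, sensors of microbial products chosen as a family in the same way, 4 were called higher, against 0.607% of all genes. These were Tlr8 (1.02), Tlr13 (0.59), Tlr1 (0.48) and Tlr6 (0.42). Tlr1 had overlapping arrays (adjusted p = 0.0492 in limma). In NG-Ptch, Tlr6 (6.17), Btk (6.23), Tlr1 (6.5), Tfec (6.53) and Tlr8 (6.63) averaged close to the lower quartile of the arrays.

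Promoters of the 3 called microglia genes are shown because PU.1, a transcription factor of myeloid cells, binds sites with a GAGGAA core. The sequences are the 250 bases before the gene start, from RefSeq on GRCm38.p6, written 5′ to 3′ on the strand of the gene, with each GAGGAA on either strand in capitals. They lie at chr17:35176053-35176302 on the minus strand for Aif1, at chr1:138175306-138175555 on the minus strand for the first of 2 windows listed for Ptprc, and at chr9:120068297-120068546 on the minus strand for Cx3cr1.
Aif1: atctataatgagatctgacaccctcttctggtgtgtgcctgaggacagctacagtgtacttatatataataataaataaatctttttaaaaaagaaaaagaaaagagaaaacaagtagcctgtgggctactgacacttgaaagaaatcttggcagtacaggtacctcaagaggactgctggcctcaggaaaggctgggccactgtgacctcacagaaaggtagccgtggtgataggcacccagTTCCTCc
Ptprc: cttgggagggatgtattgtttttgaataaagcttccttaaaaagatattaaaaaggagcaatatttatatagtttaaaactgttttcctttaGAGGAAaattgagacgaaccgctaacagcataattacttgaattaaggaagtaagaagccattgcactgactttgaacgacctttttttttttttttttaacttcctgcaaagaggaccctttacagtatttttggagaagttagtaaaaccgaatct
Cx3cr1: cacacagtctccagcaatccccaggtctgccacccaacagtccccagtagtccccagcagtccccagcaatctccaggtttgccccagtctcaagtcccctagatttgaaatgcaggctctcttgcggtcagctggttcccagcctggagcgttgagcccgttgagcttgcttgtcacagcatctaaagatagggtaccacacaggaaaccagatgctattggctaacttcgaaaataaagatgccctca
Aif1 and this window of Ptprc each held 1 match, and Cx3cr1 held 0. The second window of Ptprc, not printed here, also held 0. In the counts that follow, a gene counted as found if any window listed for it matched. The search was made in steps. GAGGAAGT was searched first and was found in 3 of 92 called increases with a promoter (3.26%), 0 of 73 called decreases, 1 of 14 genes of the microglia list (7.14%) and 2.59% of all 15614 genes. The shorter GAGGAA, which lies within it, and the Gli site GACCACCCA were added after those counts were seen, all on both strands. GAGGAA was found in 34 of 92 called increases (37.0%), 16 of 73 called decreases (21.9%), 10 of 14 microglia genes (71.4%) and 25.5% of all genes. GACCACCCA was found in 1 of 92 called increases (1.09%), 0 of 73 called decreases, 0 of 16 genes of the Hedgehog list and 0.192% of all genes. A match is a description of the letters, and no match says only that these letters are not in this window.

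Of 9 genes of MHC class I and antigen processing, 2 were called higher, against 0.607% of all genes. Psmb8, a subunit of the immunoproteasome, was at 7.02, 6.97, 6.99 and 7.14 in NG-Smo, against 6.55, 6.48, 6.61 and 6.62 in NG-Ptch, and rose by 0.47 ± 0.062 (SE, n = 4 each; limma adjusted p = 0.00214). The class I gene H2-Q4, one of a family of similar genes, rose by 0.74 (adjusted p = 0.0443 in limma). In NG-Ptch, Psmb8 (6.56) and H2-Q4 (6.54) averaged close to the lower quartile of the arrays. Among 9 MHC class II genes none was called, with H2-Aa at 0.56 and the invariant chain gene Cd74 at 0.52. The complement receptor C3ar1 rose by 0.62 (adjusted p = 0.0495 in limma), with arrays that overlapped. The iron exporter gene Slc40a1 rose by 1.06 (adjusted p = 0.0485 in limma), also with overlapping arrays, at 7.72 in NG-Smo replicate 4 and between 8.72 and 9.25 in NG-Smo replicates 1 to 3, against 7.29 to 7.83 in NG-Ptch. Trp53inp1, a p53 target, rose by 0.47 (adjusted p = 0.0495), and the immediate early gene Egr2 fell by 0.43 (adjusted p = 0.0418 in limma). H2-Q4, C3ar1, Slc40a1, Trp53inp1 and Egr2 kept their calls in 2 to 5 of the 18 fits that left out 1 array.

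Of 6 measured genes known to differ between inbred mouse lines, 2 were called higher, against 0.607% of all genes, and the labels give no strain. Wdfy1, an adaptor of Toll-like receptor signalling, was at 9.27, 9.11, 9.27 and 9.22 in NG-Smo, against 8.50, 8.49, 8.47 and 8.52 in NG-Ptch. It rose by 0.72 ± 0.065 (SE, n = 4 each; limma adjusted p = 6.73e-05). The mitochondrial transhydrogenase Nnt averaged 10.64 ± 0.08 in NG-Smo and 9.88 ± 0.29 in NG-Ptch (SD, n = 4 each; limma adjusted p = 0.0128). The other 4 were not called, and a part of strain in any result was not tested.

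Of 41 gene lists, 31 had no called member. Apart from the oligodendrocyte and endothelial lists, medians of the lists with none or 1 called member lay between -0.25 and 0.11. The 12 endothelial genes were all above 0 with a median of 0.26, led by Slco1c1 (0.74) and Cdh5 (0.39), neither called. Lymphocyte genes averaged 6.39 to 6.58 in NG-Smo and 6.29 to 6.43 in NG-Ptch, close to the lower quartile of the arrays, and so did granulocyte and mast cell genes, at 6.31 to 6.47 in NG-Smo and 6.30 to 6.34 in NG-Ptch. The 15 genes of potassium and calcium channels had a median of -0.20, with the potassium channel gene Kcna1 at -0.98 and separate arrays (adjusted p = 0.244 in limma). Notch targets Hes1 and Hey1 had changes of -0.65 and -0.52, and the chaperone Hspa5 one of 0.51, none of them called.

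The immune, vascular and blood lists described next had no called member. The chemokine gene Ccl3 had a change of 0.95 (adjusted p = 0.103 in limma) and Ccl6 one of 0.65, in a list of 14 with a median of 0.00. The 17 interferon response genes had a median of -0.07, with Ifit3 at -0.39 and Cxcl10 at 0.33. Cd4 and Cd79b of lymphocytes were at 0.39 and 0.24, and Cpa3 of mast cells at 0.20. The matrix gene Thbs2 had a change of 0.53 in a list of 14 for fibroblasts and pericytes with a median of 0.09. Of 4 measured erythrocyte genes, Epb42 was at 0.08 and Rhag at -0.04.

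Signalling and metabolic lists had medians near that of all genes. Fgf5, a growth factor, and Erbb3, a receptor, were at 0.29 and 0.28 among 17 genes of FGF and EGF signalling (median -0.03). Etv5 and Dusp6, both output genes of MAPK signalling, were at -0.52 and 0.27 among 14 (median 0.04). The IGF-binding protein gene Igfbp3 was at 0.73 among 14 (median -0.01), and the ligand Tgfb2 at -0.47 among 19 genes of BMP and TGF-beta signalling (median 0.00). The hypoxia genes Egln3 and Vegfa were at 0.56 and -0.36 among 13 (median 0.02), and Hmgcs1 and Sc5d of cholesterol synthesis at 0.31 and 0.23 among 13 (median -0.03). The chaperonin gene Hspe1 was at 0.26 among 9 heat shock genes (median 0.01).

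Chromatin and neuronal lists likewise held no called gene. Polycomb and DNA methylation genes had a median of -0.11 over 15, with Cbx7 at -0.34 and Tet2 at -0.20, and their mean level ran from 10.17 to 10.23 in NG-Smo and from 10.24 to 10.31 in NG-Ptch, without overlap. The netrin receptor gene Unc5c was at -0.80, the calcium channel gene Cacna1c at -0.67, and the glutamate receptor gene Grin2b at -0.46. Pcp4 of Purkinje cells had a change of -0.80 and Otx2, from the list for choroid plexus and ependyma, one of -0.52. Without NG-Smo replicate 4, the genes Cacna1c, Ccl3, Cxcr4, P2ry12, Rbfox3, Sfrp1, Tyms and Cdk1, none of them called with all arrays, were called, among 1.93% of all genes.

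**Figure D4:**
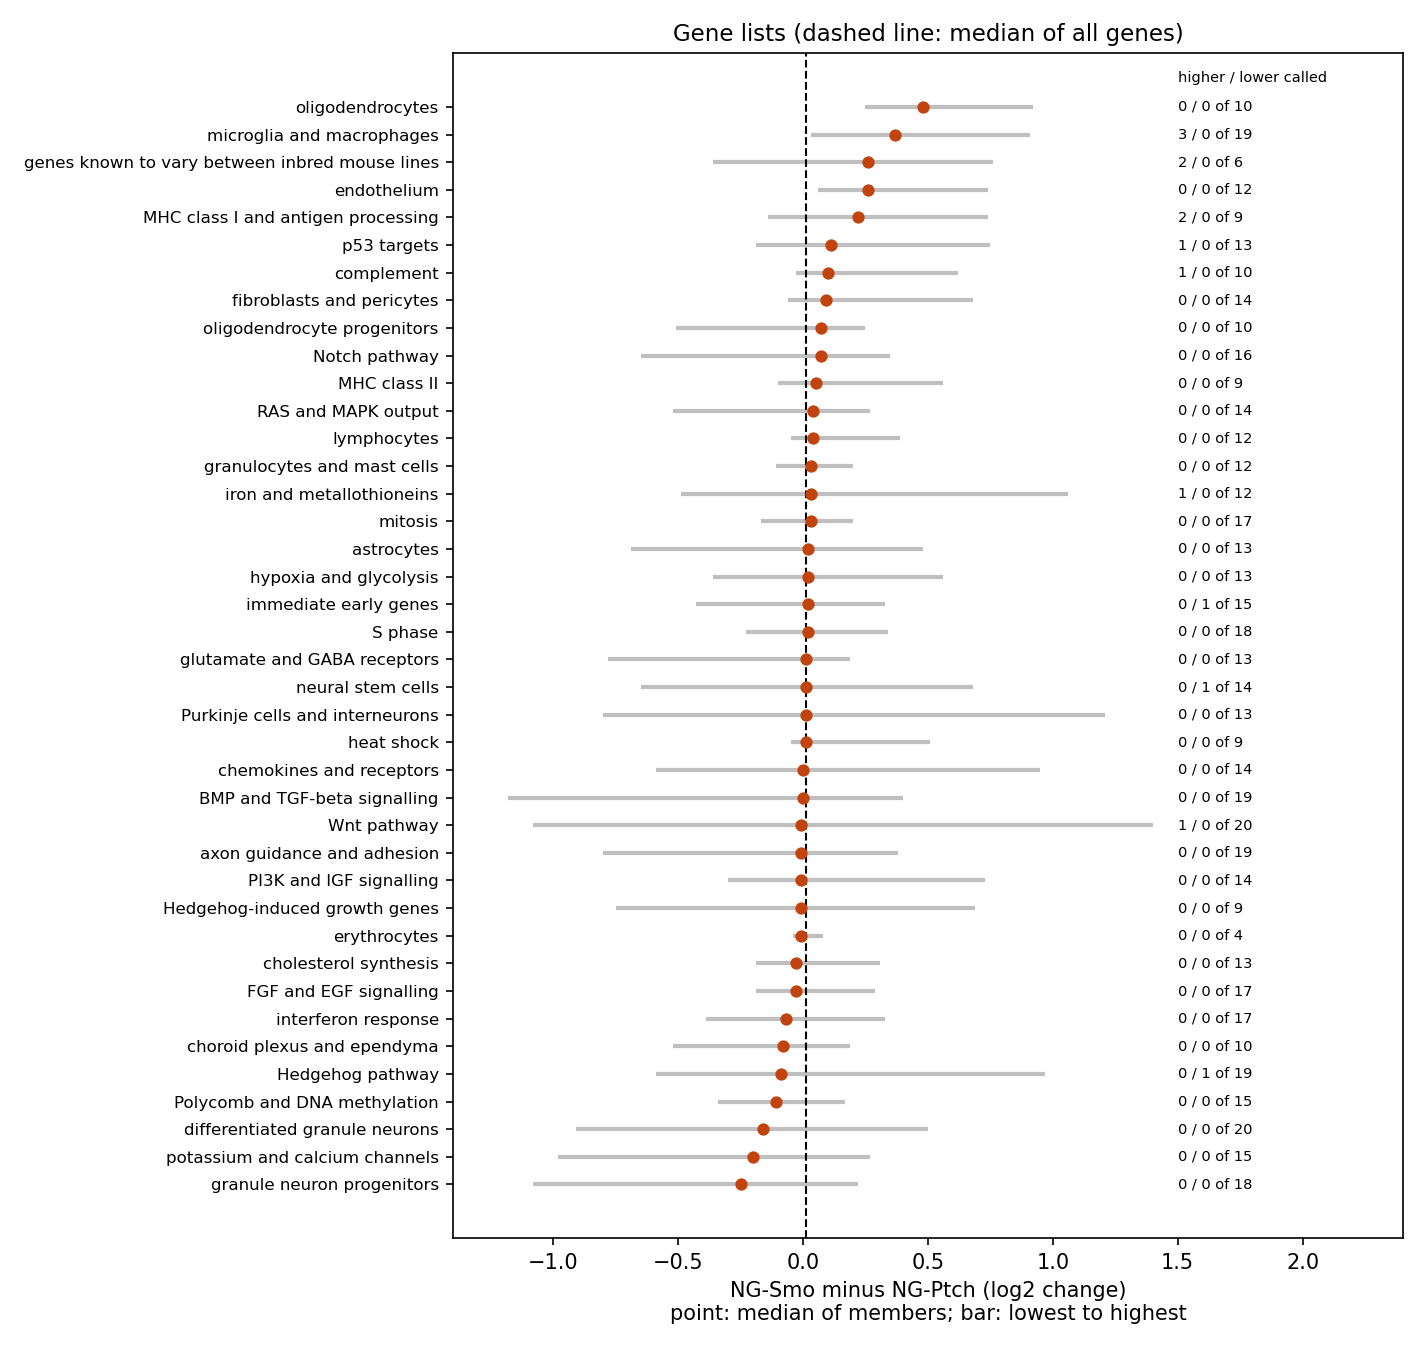
Median (point) and range (bar) of the log2 change, NG-Smo minus NG-Ptch, in each gene list other than the sex-linked genes, with the number of members called higher and lower of those measured at the right. The dashed line is the median of all genes, 0.01, and most list medians lie close to it.

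The comparison of Smo with Ptch in GFD tumours used other arrays, 4 GFD-Smo against 2 GFD-Ptch, and it also carried a change of Cre driver and of sex. Both GFD-Ptch arrays and 1 of the 4 GFD-Smo arrays had Y-linked transcripts. Of all genes, 3110 (15.6%) were called there. Of the 208 genes called in NG tumours, 84 were called in the same direction in GFD tumours, which is 40.4% of the NG calls and 2.70% of the GFD calls, and 5 were called in the opposite direction. Npl had a change of 3.20 in GFD tumours, Ctse one of 1.62, Ifi203 one of -3.12, Foxd1 one of -2.29 and Wdfy1 one of 0.80, all called there too.

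A direct test of the difference between the NG and GFD comparisons called 759 genes (3.81%), 280 (1.40%) above 0 and 479 (2.4%) below 0. Median centring turned that split to 779 above and 425 below. Leaving out GFD-Ptch replicate 1 or 2 gave 394 or 248 genes, and leaving out GFI-Ptch replicate 4 gave 1285. The count was 457, 444 or 447 without GFD-Smo replicate 1, 2 or 3, and 457, 424 or 503 without NG-Ptch replicate 1, 2 or 5. Among the 208 genes called in NG tumours, 37 (17.8%) were called in that test. The NG change is a part of the tested difference, so choosing these 208 by it favours a share above that of all genes. Prm1 had a change of -3.24 in NG and 0.54 in GFD tumours, a difference of -3.78 ± 0.649 (SE; limma adjusted p = 0.00588). Pcdhb3 had one of 1.29 in NG and -0.71 in GFD tumours (difference 2.0, adjusted p = 0.00154 in limma), and Dmrtb1 one of 1.47 in NG and 0.10 in GFD tumours (difference 1.37, adjusted p = 0.00616 in limma). Some of the named myeloid genes passed this test, all with a difference above 0, and others did not pass. Those named as called were chosen for a higher level in NG-Smo, which favours a difference above 0. Their shared direction is therefore no separate result. Cybb had a change of 0.77 in NG and -0.42 in GFD tumours (difference 1.19, adjusted p = 0.00995 in limma), and Ptprc one of 0.56 in NG and -0.29 in GFD tumours (difference 0.86, adjusted p = 0.0191 in limma). Cx3cr1, in contrast, was called higher in both, at 0.91 in NG and 0.97 in GFD tumours (difference -0.05 ± 0.287, SE; limma adjusted p = 0.921). So were Nckap1l, at 0.83 in NG and 0.72 in GFD tumours, and Pld4, at 0.87 in NG and 0.53 in GFD tumours, and neither difference passed (adjusted p = 0.739 and 0.348 in limma). Among the 6 largest differences in genes that passed this test, the 5 other than Prm1 belonged to genes called in GFD but not in NG tumours. The water channel Aqp4 had a change of -0.22 in NG and 3.49 in GFD tumours, the lipid desaturase Scd1 -0.07 in NG and 3.83 in GFD tumours, and the aldolase Aldoc -0.30 in NG and 4.09 in GFD tumours. Mtx2 had a change of -1.38 in NG and 3.51 in GFD tumours, and Zdbf2 one of -1.68 in NG and 2.83 in GFD tumours.

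**Figure D5:**
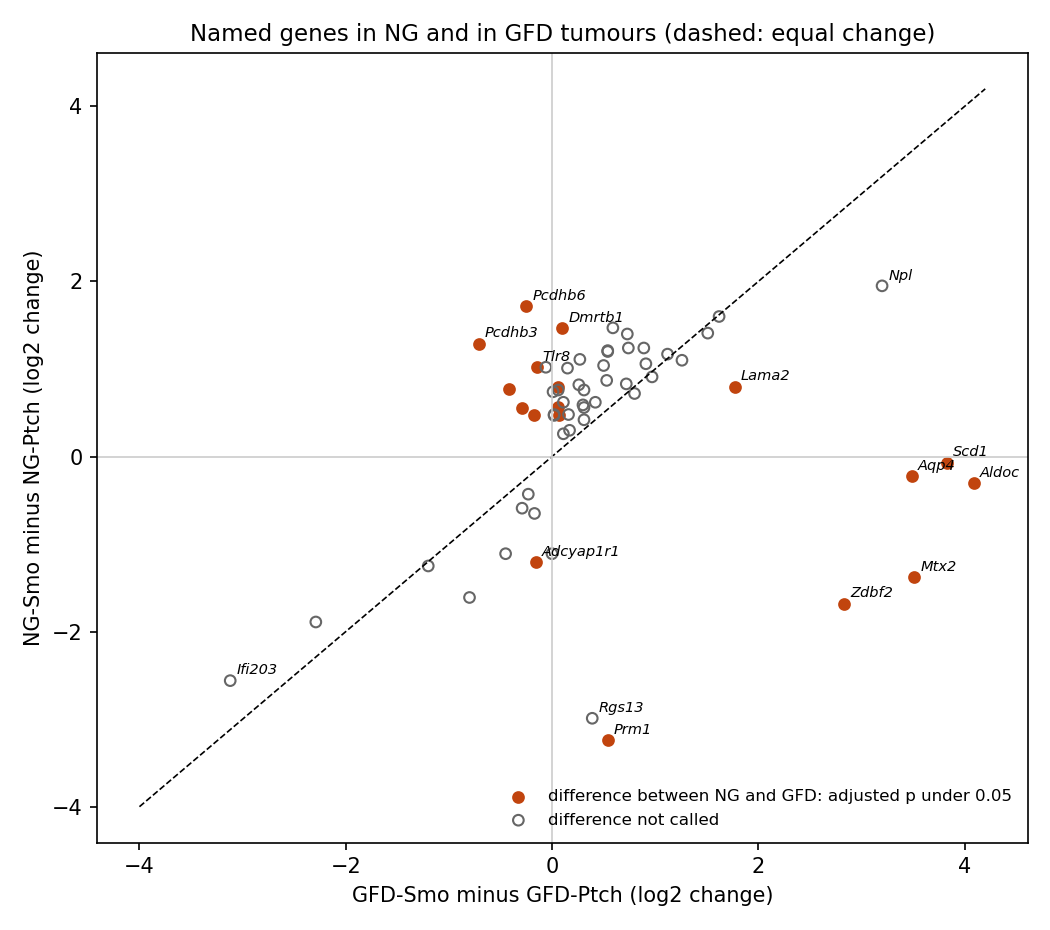
Log2 change of NG-Smo minus NG-Ptch (vertical) against GFD-Smo minus GFD-Ptch (horizontal) for named genes called in NG tumours or with the 6 largest called differences between both comparisons. Filled points passed the test of the difference, and Npl and Ifi203 lie on the same side of 0 in both.

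Of all 208 called genes, 34 kept the call with the 8 NG arrays alone, and 54 without the 2 NG-Smo arrays that had Y-linked transcripts. The 57 genes named here as called were chosen by size, by list or after their values were seen, so they do not stand for the 208. Of these 57, 28 kept the call in all 18 fits that left out 1 array. With the 8 NG arrays alone 18 of the 57 kept it, and 21 kept it without those 2 NG-Smo arrays. The 11 that kept it in all of these were Ctse, Dmrtb1, Pcdhb3, Hpca, Scp2, Syk, Nckap1l, Il10ra, Psmb8 and Wdfy1, which rose, and Ifi203, which fell. None of the 57 changed sign in any alternative tried. Most of them had separate arrays, and for those a fit of group means to fewer arrays could not have changed the sign.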

How the data were processed

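The deposited table holds log2 expression values for 35556 probe sets on 18 arrays. Per the submitters' processing notes the authors used Partek 6.6, and background correction, normalization and summary settings are not given in the sources used here. Arrays give no depth, and their number limits the precision. The probe annotation gave 1 symbol to 21789 probe sets, several to 1621 and none to 12146, which left 19938 genes. Groups came from the titles. limma 3.58.1 (R 4.3.3) fitted 5 group means to all 18 arrays, with 13 residual and 2.45 prior degrees of freedom and Benjamini-Hochberg adjustment over all genes, and the fit was tested on simulated data.

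The named genes are the 15 largest increases and up to 15 largest decreases among called genes with a change of at least 1 and separate arrays (20 and 9 qualified, leaving out sex-linked, predicted and several multigene classes), up to 4 called or 2 uncalled members of each list, the 6 largest called differences between NG and GFD, and a set of fixed genes. The members, lists and rules were chosen with earlier results of these data known. Of 613 list entries, 558 were measured. Alternatives were other scalings, a filter at 7, mean of probe sets, array weights, trended prior, the gender label or Y-linked level as a covariate, the 8 NG arrays alone, the replicate block and each array left out. Fits without the Y-positive NG-Smo arrays, or with replicates 1, 2 and 4 unpaired, were chosen after seeing the data. Promoters and motifs were read in Python 3.11.15.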

Additional observations from a re-analysis of the deposited data

Results flagged for a closer look

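In 17 of 272 groups of 4 arrays (6.25%) the highest or lowest array was set apart from the other 3, and chance sets apart about 1 in 20. In NG-Smo these were Hpca (11.99, replicate 4), Igf2 (12.41, replicate 2), and S100b (9.42), Ttr (11.15), Bmp5 (7.33) and Cybb (10.60) in replicate 1. In NG-Ptch they were Prm1 (8.80), Ifi203 (9.63), Ttr (12.14), Tet2 (9.32), Gabra2 (7.53) and Nnt (9.45) in replicate 4, Sufu (11.35), Pax6 (11.67) and Tfec (6.33) in replicate 5, and Csf3r (7.64) and Bmp5 (11.46) in replicate 1. Ttr, a marker of choroid plexus, was at 6.31 to 6.67 on the other 6 NG arrays.

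The change of NG-Smo over NG-Ptch differed from that of GFD-Smo over GFD-Ptch in limma for 23 named genes. The difference was above 0 for H2-Aa (3.32), Pcdhb3 (2.0), Pcdhb6 (1.97), Dmrtb1 (1.37), Cybb (1.19), Tlr8 (1.17), Ptprc (0.86), Gpr65 (0.74), Psmb8 (0.64), Il10ra (0.52) and Syk (0.40). It was below 0 for Mtx2 (-4.89), Zdbf2 (-4.51), Aldoc (-4.39), Scd1 (-3.90), Prm1 (-3.78), Aqp4 (-3.72), Nefl (-2.93), Hhip (-2.33), Slit2 (-1.98), Gfap (-1.88), Adcyap1r1 (-1.05) and Lama2 (-0.97). H2-Aa averaged 5.85 ± 0.14 in GFD-Smo (SD, n = 4), against 8.0 and 9.22 in the 2 GFD-Ptch arrays.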

How the results depend on the processing

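The 208 calls between NG-Smo and NG-Ptch became 42 with the 8 NG arrays alone (1947 genes at an unadjusted p under 0.05), 96 with the gender label as a covariate, 419 with array weights and 76 without the Y-positive NG-Smo arrays. The gender label goes against the Y-linked genes on 3 arrays. Among the NG arrays it reads ND for NG-Ptch replicates 2, 4 and 5 and for NG-Smo replicate 3. ND was fitted as a level of its own, so this covariate was partly tied to the NG groups and does not correct for sex alone. Leaving out 1 array gave 75 to 384 calls. Quantile normalization, median centring, the filter on dim genes, the mean of probe sets, the trended prior and the Y-linked level gave 159 to 211. The 759 calls of the difference between NG and GFD became 159 with the Y-linked level, 188 with the gender label, 1484 with array weights and 1204 with median centring, and 248 to 1285 with 1 array left out. Median centring turned their split to 779 above and 425 below 0, and quantile normalization gave 436 above and 537 below, against 280 and 479 as reported. The cause of these shifts was not tested.

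Whether the replicate numbers pair the arrays could not be decided from 3 shared numbers. Deviations of same-numbered arrays correlated at 0.05, 0.102 and 0.111, and those of differently numbered arrays at -0.182 to 0.105. The highest of the latter was NG-Smo replicate 1 with NG-Ptch replicate 2. The replicate block over numbers 1, 2 and 4 gave 0 calls in limma and 1689 genes at an unadjusted p under 0.05, and the same arrays without the block gave 3 calls and 1464 genes.

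Genes that turned sign were not called in any of these fits. Lhfpl3 was at -0.04 with the block and with the same arrays unpaired, Ttr at 0.55 with array weights, Scd1 at 0.07 and Sox2 at 0.13 with the Y-linked level, Eif2s3y at -0.03 with that level and 0.00 without the Y-positive arrays, Sox2 at 0.15 without those arrays, and Atoh1 at 0.07, Sox2 at 0.16 and Olig2 at 0.08 with the gender label. With 1 array left out, both signs occurred for Igf2 (-0.04 to 0.97), Ttr (-1.59 to 0.96), Aldoc (-0.79 to 0.02), Scd1 (-0.41 to 0.25), Atoh1 (-0.17 to 0.07) and Sox2 (-0.37 to 0.19).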

Other observations

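Each of chromosomes 1 to 19 and X held called genes, in unequal shares, as counted after the calls were seen. Chromosome 4 held 25 called genes of 1154 (2.17%) and chromosome 6 held 20 of 1099 (1.82%), against 1.04% of all genes. The other chromosomes had between 0.419% and 1.63% called. A concentration by chromosome was not tested.

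Genes of blood vessel walls and of other tissues gave these values. The pericyte gene Rgs5 averaged 9.57 ± 0.36 in NG-Smo and 8.89 ± 0.18 in NG-Ptch (SD, n = 4 each), with separate arrays and an adjusted p of 0.127 in limma. Pvalb, a marker of Purkinje cells and interneurons, was at 10.57 and 12.47 in NG-Smo replicates 1 and 2 and at 8.53 and 8.24 in replicates 3 and 4, against 8.24 to 9.09 in NG-Ptch. The axon guidance gene Slit2 averaged 6.63 ± 0.14 in NG-Smo and 7.28 ± 0.31 in NG-Ptch (SD, n = 4 each; limma adjusted p = 0.118), whereas its change in GFD tumours was 1.33 (adjusted p = 9.39e-04 in limma).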
